A study of Mus musculus with 6 samples.

Results

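Lin28a, Lin28b, Hmga1, Hmga2, Igf2bp1, Igf2bp2, Igf2bp3 and Trim71 are genes of an embryonic programme that is tied to the let-7 family of microRNAs. They were followed in digits in a dish (DID) cultures, in which dissociated distal forelimb mesenchyme of mouse embryos is plated at high density and forms digit-like cartilage in the dish. The 8 genes were taken by their symbols from the 32286 gene rows of the count tables. Single-cell RNA-seq libraries had been made at Day 2, Day 7 and Day 10 of culture, with 2 independent cultures (replicates A and B) at each time point, 6 libraries in all. Every culture came from wildtype CD-1 embryos at E11.5, and limb tissue of several embryos was pooled before plating. The groups differed in their time in culture. Each day was a separate set of dishes, and no dish was followed over time. A batch of dishes or libraries thus cannot be told apart from the day.

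LIN28 proteins are RNA-binding proteins of embryonic and stem cells that bind let-7 precursors and keep them from being processed, with the help of uridine-adding enzymes such as TUT4 and of the exonuclease DIS3L2. Mature let-7 in turn represses mRNAs with matching sites in their 3′ untranslated regions (UTRs), and Lin28a, Lin28b, Hmga2, Igf2bp1 and Trim71 are textbook examples of such targets. HMGA1 and HMGA2 are AT-hook proteins that bend DNA and alter chromatin, the 3 IGF2BP proteins bind and stabilise mRNAs, including those of Igf2 and Myc, and TRIM71 is an RNA-binding repressor with a RING domain that is needed in the early embryo. Most of these genes are high in the early embryo and low in mature tissue, with Igf2bp2 the member best known to stay on in adult tissues.

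The mature let-7 sequences are shown first, because their seed (bases 2 to 8, in capitals) is what the genes share by sequence. In RefSeq's mature miRNAs (GRCm38.p6), 13 loci with 11 different sequences had the seed of let-7a, among them those below, printed 5′ to 3′. let-7j, by contrast, carried another base at the end of its seed.
let-7a-5p (chr13:48538239-48538260, minus strand): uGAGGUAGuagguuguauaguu
let-7b-5p (chr15:85707325-85707346, plus strand): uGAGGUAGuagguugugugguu
let-7c-5p (chr16:77599672-77599693, plus strand): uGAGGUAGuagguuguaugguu
let-7i-5p (chr10:122985698-122985719, minus strand): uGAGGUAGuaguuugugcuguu
miR-98-5p (chrX:151913229-151913250, plus strand): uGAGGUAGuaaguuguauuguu
let-7j (chr3:140028281-140028304, plus strand): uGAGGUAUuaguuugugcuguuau

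The letters opposite that seed, CTACCTC, were searched in the longest annotated 3′ UTR of each gene (GENCODE M21, GRCm38), on the strand of the transcript only. All 8 genes held at least 1 match. Hmga2, Lin28b, Igf2bp1 and Trim71 held 4 each, Lin28a held 2, and Hmga1, Igf2bp2 and Igf2bp3 held 1 each. Of the 21173 genes with an annotated 3′ UTR, 10.1% had a match. Longer UTRs hold more matches, so each gene was also set beside genes with a 3′ UTR of similar length, among which 0.164% had as many matches as Hmga2 or more, 0.208% as many as Lin28b, 0.273% as many as Trim71 and 0.394% as many as Igf2bp1. The shares were 2.33% for Lin28a, 9.28% for Hmga1, 12.6% for Igf2bp2 and 13.9% for Igf2bp3, so the last 3 genes were not unusual by this measure.

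The matches below are printed as DNA, 5′ to 3′ on the strand of the transcript, with the letters opposite the seed in capitals. They are those of Hmga2 and Trim71, the first of Lin28b, and the single ones of Igf2bp2, Igf2bp3 and Hmga1, shown to compare genes with many matches with genes that had only 1. A match is a description of the sequence and no measurement of let-7 binding.
Hmga2 match 1 (chr10:120364224-120364245, minus strand): ccgacattcaatttCTACCTCa
Hmga2 match 2 (chr10:120362987-120363008, minus strand): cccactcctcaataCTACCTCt
Hmga2 match 3 (chr10:120362549-120362570, minus strand): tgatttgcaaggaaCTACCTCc
Hmga2 match 4 (chr10:120361691-120361712, minus strand): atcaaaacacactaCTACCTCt
Trim71 match 1 (chr9:114512472-114512493, minus strand): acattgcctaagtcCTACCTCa
Trim71 match 2 (chr9:114512376-114512397, minus strand): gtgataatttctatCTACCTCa
Trim71 match 3 (chr9:114509047-114509068, minus strand): ttagtatggattttCTACCTCa
Trim71 match 4 (chr9:114509021-114509042, minus strand): tggcaaaaagttgtCTACCTCa
Lin28b match 1 (chr10:45381022-45381043, minus strand): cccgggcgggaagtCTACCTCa
Igf2bp2 match (chr16:22059473-22059494, minus strand): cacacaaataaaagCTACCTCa
Igf2bp3 match (chr6:49086787-49086808, minus strand): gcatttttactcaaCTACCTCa
Hmga1 match (chr17:27563278-27563299, plus strand): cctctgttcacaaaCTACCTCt
An A directly after the match, opposite the first base of the miRNA, is known to favour repression. It followed all 4 matches of Trim71, 3 of the 4 of Igf2bp1, both of Lin28a, 1 of the 4 of Hmga2 and of Lin28b, and the single matches of Igf2bp2 and Igf2bp3.

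The libraries held between 9448 and 16486 cells each after the quality filters of the study, and 178022112 to 260245417 unique molecular identifiers (UMIs, which count captured RNA molecules). Day 2 replicate B stood apart in depth per cell, with a median of 3871 UMIs where replicate A had 18587 and 41.4% of its cells under 3000 UMIs against 6.84% in replicate A. The libraries shared 24 to 67 cell barcodes per pair, at most 0.543% of the smaller library. The limb mesenchyme gene Prrx1 lay between 219 and 430 CPM (UMIs of a gene scaled to a common library total) in every library, the distal limb gene Hoxa13 between 10.1 and 20.2 CPM and Hoxd13 between 15.8 and 28.1 CPM, while the endothelial gene Pecam1 was at 0.245 to 0.603 CPM and the epidermal gene Krt14 at 0.00409 to 4.04 CPM. UMIs were summed over the cells of each library and the 6 sums compared with edgeR's quasi-likelihood test, with Benjamini-Hochberg adjustment over the 18987 genes that passed the filter on low counts and a call at an adjusted p under 0.05. CPM values of whole libraries are scaled by TMM factors (a correction for RNA composition), and errors of log2 fold changes are standard errors from that fit. The replicates were separate cultures of pooled tissue, so p-values measure the spread between these cultures. In such sums, fewer cells of a type and less RNA per cell cannot be told apart.

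All 7 genes that passed the filter fell from Day 2 to Day 7, and all 7 were still below Day 2 at Day 10. Over all genes tested, 34.6% were called lower and 35.7% higher at Day 7 than at Day 2, and 38.2% lower and 39.0% higher at Day 10 than at Day 2. At Day 7 the share of the Day 2 mean that was left ran from 5.41% for Lin28b over 16.8% for Hmga2 to 59.2% for Igf2bp2. Between Day 7 and Day 10 the genes parted: Hmga1, Igf2bp1 and Igf2bp2 fell further, against 25.9% of all genes called lower, while Hmga2, Igf2bp3 and Trim71 rose, against 26.3% called higher. Lin28b passed the test in neither direction in that step.

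**Figure D1:**
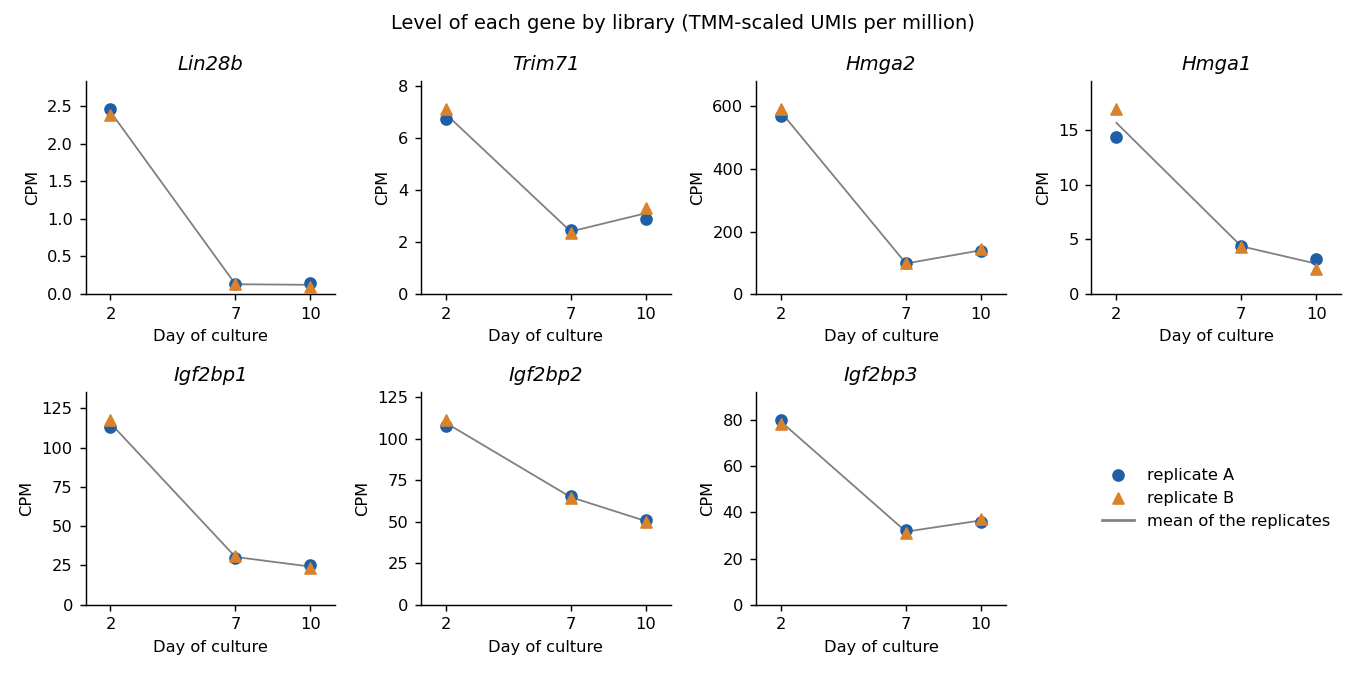
Each panel plots the TMM-scaled CPM of one gene (y axis, from 0) against the day of culture (x axis), with circles for replicate A, triangles for replicate B and a line through the means of the 2 replicates. Day 2 lies above Day 7 and Day 10 in every panel, and the lines of Hmga2, Igf2bp3 and Trim71 turn up after Day 7, where those of Hmga1, Igf2bp1 and Igf2bp2 go on down.

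Lin28a, the family member best known from pluripotent cells (chr4:134003330-134018841, minus strand), was practically not detected. It had 1 UMI in Day 2 replicate A, 2 in Day 2 replicate B and 0 in the 4 later libraries. Per raw library total, without TMM factors, that allows up to 0.00733 CPM over the 2 libraries of Day 7. Over those of Day 10 it allows up to 0.00608 CPM (3 counts, counting error only). It was not tested, since it had only 3 UMIs at Day 2 in all. Lin28b (chr10:45376620-45486395, minus strand) was the LIN28 gene measured here. It was at 2.46 and 2.38 CPM in the Day 2 libraries, 0.133 and 0.129 CPM at Day 7, and 0.147 and 0.0991 CPM at Day 10. The Day 2 libraries lay far above all later ones, while those of Day 7 and Day 10 overlapped. The decline from Day 2 to Day 7 was 18.4-fold, a log2 fold change of -4.20 ± 0.20 (edgeR, adjusted p = 2.3e-07), and rested on 1054 UMIs at Day 2 and 50 at Day 7. Day 10 against Day 7 gave -0.08 ± 0.25 (adjusted p = 0.825), on 58 UMIs at Day 10. In cells thinned to 3000 UMIs, the values for Lin28b were -3.31 (adjusted p = 1.2e-05) for the first step and -1.153 (adjusted p = 0.206) for the second.

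Trim71 (chr9:114507133-114564369, minus strand) was at 6.74 and 7.14 CPM at Day 2, 2.47 and 2.36 CPM at Day 7, and 2.91 and 3.32 CPM at Day 10. It fell 2.88-fold by Day 7, a log2 fold change of -1.52 ± 0.09 (edgeR, adjusted p = 9.3e-07). The rise from Day 7 to Day 10 was 0.37 ± 0.09 on the log2 scale (edgeR, adjusted p = 0.0098). The libraries of the 2 days did not overlap, but of all genes 39.2% lay higher and 40.6% lower without overlap in that step. The rise was 0.83 in cells thinned to 3000 UMIs (adjusted p = 0.0055), and its call was lost when Day 7 replicate B or Day 10 replicate B was left out.

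Hmga2 (chr10:120361275-120476469, minus strand) had 252325 UMIs at Day 2 and was by UMIs the best measured of the 8. It was at 571 and 592 CPM at Day 2, 97.8 CPM in both Day 7 libraries, and 138 and 143 CPM at Day 10. It fell 5.94-fold from Day 2 to Day 7, a log2 fold change of -2.57 ± 0.06 (edgeR, adjusted p = 5.3e-09). It then rose 1.43-fold to Day 10, by 0.52 ± 0.05 on the log2 scale (adjusted p = 0.00014), and remained 4.15-fold below Day 2 (-2.05 ± 0.06, adjusted p = 8.2e-09). The replicates of each day differed far less than the days did.

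Hmga1 (chr17:27556497-27563674, plus strand) was at 14.4 and 16.9 CPM at Day 2, 4.42 and 4.33 CPM at Day 7, and 3.25 and 2.31 CPM at Day 10. In contrast to Hmga2 it fell in both steps, by 1.84 ± 0.14 to Day 7 (adjusted p = 4.4e-06) and by 0.65 ± 0.15 to Day 10 (adjusted p = 0.0063) on the log2 scale. Its value is uncertain, because its near-identical copy Hmga1b had nearly as many UMIs, 2447 and 2209 at Day 2 against 3322 and 3444 for Hmga1, and reads of the pair may be split or lost in counting. Hmga1b itself gave -1.51 ± 0.26 to Day 7 (adjusted p = 0.00068) and -0.45 ± 0.26 to Day 10 (adjusted p = 0.185). The change of Hmga1 after Day 7 was -0.42 without Day 10 replicate B (adjusted p = 0.0218), and it lost its call in cells thinned to 3000 UMIs (adjusted p = 0.0628).

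The 3 IGF2BP genes declined to different degrees. Igf2bp1 (chr11:95957163-96005940, minus strand) was at 113 and 118 CPM at Day 2, 29.96 and 30.9 CPM at Day 7, and 25.1 and 23.5 CPM at Day 10. Igf2bp2 (chr16:22059009-22163299, minus strand) was at 108 and 112 CPM, then 65.3 and 64.3 CPM, then 51.0 and 49.8 CPM. Igf2bp3 (chr6:49085223-49214957, minus strand) was at 80.1 and 78.1 CPM, then 32.2 and 31.1 CPM, then 35.9 and 37.0 CPM. For each of them the libraries of the 3 days did not overlap (of all genes, 42.2% lay lower and 43.2% higher without overlap from Day 2 to Day 7, and from Day 7 to Day 10 40.6% lay lower and 39.2% higher), and the replicates lay close together. Igf2bp1 fell 3.79-fold to Day 7 (log2 fold change -1.92 ± 0.05, edgeR, adjusted p = 1.6e-08), Igf2bp3 fell 2.50-fold (-1.32 ± 0.05, adjusted p = 6.7e-08), and Igf2bp2 fell 1.69-fold (-0.76 ± 0.05, adjusted p = 1.3e-06). After Day 7 Igf2bp1 fell by 0.33 ± 0.05 (adjusted p = 0.0014) and Igf2bp2 by 0.36 ± 0.05 (adjusted p = 0.00042), while Igf2bp3 rose by 0.21 ± 0.05 (adjusted p = 0.0077). The rise of Igf2bp3 lost its call without Day 7 replicate B, without Day 10 replicate B and in thinned cells. At Day 10 Igf2bp2 and Igf2bp3 stood at nearly the same share of their Day 2 means, 46.0% and 46.1%, and Igf2bp1 at 21.0%.

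Some of these genes overlap genes of the opposite strand, and the sources used here do not state whether strand was used in counting. Malsu1, opposite Igf2bp3, had 11109 to 16049 UMIs per library, and Gm29202, opposite Igf2bp1, had 293 to 410 UMIs at Day 2 and 20 to 44 later. Opposite Hmga2, 1700006J14Rik had 161 to 740 UMIs and 9230105E05Rik had 52 to 211. AI413582, opposite Hmga1, had 1179 to 4150, and C130032M10Rik, opposite Trim71, had 11 to 82. Lin28b and Igf2bp2 overlap no other gene.

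The genes whose course over the 6 libraries was most like each member's were found from the root mean square difference of centred log2 CPM among 8031 genes of at least 10 CPM. For Hmga2 these were Tbx3 (0.191), a transcription factor of limb patterning, Wasf1 (0.226), Marcksl1 (0.227), Efna2 (0.245) and Ednra (0.252). The nearest genes were much closer for Igf2bp1, with Nasp (0.0632), a histone chaperone, Ezh2 (0.0701), the catalytic subunit of PRC2, and 2610318N02Rik (0.0803). For Igf2bp2 they were Zkscan1 (0.022), Zbtb44 (0.0239) and Pabpc4l (0.0316), and for Igf2bp3 they included Mis18a (0.0345) and Rrm2 (0.0499), the latter a subunit of ribonucleotide reductase. Trim71 was closest to Plekho1 (0.0691), Mis18a (0.0817) and its fellow member Igf2bp3 (0.102). Hmga1 was closest to Ebf3 (0.0999), Stmn1 (0.112) and Kpna2 (0.165), and Lin28b to Gsta4 (0.378), the WNT inhibitor Dkk1 (0.405) and Kcnmb4 (0.408).

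Further genes of the let-7 and LIN28 pathway were read from lists, as counts beside all genes tested, whose median log2 fold change from Day 2 to Day 7 was 0.01. Of all genes 34.6% were called lower and 35.7% higher in that step. Of 20 let-7 target genes, 15 fell and 4 rose, with a median of -0.73. Mycn, a MYC family transcription factor of the early limb bud, fell the furthest (-4.95 ± 0.10, edgeR, adjusted p = 4.3e-09), followed by the DNA-binding proteins Arid3a (-2.04) and Arid3b (-1.79), while Thbs1, a matrix glycoprotein, rose (1.82). Mycn and Myc held no match to the let-7 seed in their longest 3′ UTR, while Nr6a1, with 8 matches, the most of any gene, rose by 0.62. Of 13 genes of miRNA processing and LIN28 partners, 10 fell and 1 rose, with a median of -0.35. Tut4, the uridine-adding partner of LIN28, fell by 1.47, Dicer1, which stands in the let-7 target list too, by 1.09 and Prkra by 0.66, while Ago3 rose by 0.75. Xpo5 (-0.13) and Ago4 (-0.19) did not pass the test. From Day 7 to Day 10, 8 of the 13 fell, against 25.9% of all genes, and 1 rose, against 26.3%, with Dgcr8 (-0.57) and Tut4 (-0.49) in front and Ago3, which had risen before, among those that fell, and of the 20 targets 8 fell and 4 rose, led by the rises of Myc (0.62) and Ccnd1 (0.54) and the falls of Cdc25a (-0.50) and Tgfbr1 (-0.44).

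Mature let-7 was not measured, but some of its loci lie within longer transcripts of the same strand. Lncppara, which holds the loci of let-7b and of a let-7c copy, rose from 0.991 and 0.846 CPM at Day 2 to 4.73 and 5.58 CPM at Day 7 (log2 fold change 2.49 ± 0.12, edgeR, adjusted p = 2.7e-07), and fell by 0.58 to Day 10. Mir99ahg, around the other let-7c copy, rose by 0.83, and 6720427I07Rik, around let-7a, let-7d and let-7f copies, rose by 0.45 and then fell by 0.59 to Day 10. By contrast Huwe1 (-0.33), Wdr82 (-0.58) and Spaca6 (-0.67), protein-coding hosts of let-7f, let-7g and let-7e loci, fell. D630033A02Rik, around let-7i, was not tested. A host transcript is not a measure of its mature miRNA. In a list of 6 miRNA host genes, of which 5 were in the tables and tested, Mir22hg (2.14) and Mir99ahg rose to Day 7 and Mir155hg (-1.85), Mir17hg (-1.40) and Mir100hg (-1.10) fell, with a median of -1.10. Of all genes, 34.6% were called lower and 35.7% higher in that step. At Day 10 against Day 7, 3 of the 5 fell (Mir100hg -0.99, Mir99ahg -0.47, Mir17hg -0.35) and 0 rose. There, 25.9% of all genes were called lower and 26.3% higher.

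Grouped by the number of seed matches, with the 8 members left out, the 13873 tested genes without a match had a median log2 fold change of 0.0106 from Day 2 to Day 7, and 36.4% of them were called lower. The 1551 genes with 1 match had 0.0114 and 38.7%, and the 211 with 2 matches -0.0012 and 36.5%. The 28 genes with 3 or more had -0.30 and 60.7%, and their 3′ UTRs had a median length of 4462 bases against 1165 bases for genes without a match. Among genes whose 3′ UTR length lay within the quartiles of that of genes with a match, the medians were -0.0321 without and -0.00796 with a match. This comparison pools all genes with 1 or more matches, so it cannot tell how length bears on the 28 genes.

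**Figure D2:**
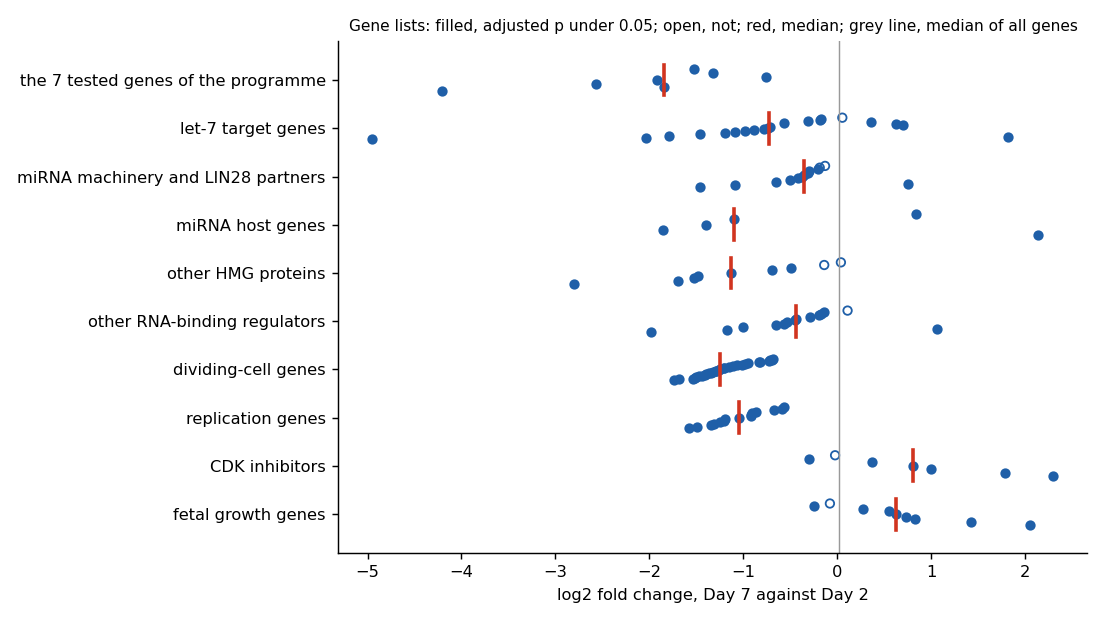
Each point is the log2 fold change of one gene from Day 2 to Day 7 (x axis) in the lists named on the y axis, filled where the adjusted p was under 0.05 and open where it was not; red bars are list medians and the grey line is the median of all genes. The 7 tested genes of the programme lie between -4.20 and -0.76, below the all-gene median, and the CDK inhibitors and fetal growth genes lie mostly above it.

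The genes that act beside the programme moved in both directions. Of 9 other HMG proteins 7 fell to Day 7, where 34.6% of all genes were called lower, with a median of -1.13 over the 9, Hmgb3 by 2.81, Hmgb2 by 1.69, Hmgn5 by 1.53 and Hmgb1 by 1.48, while Hmgn3 (-0.14) was among those that did not pass the test. From Day 7 to Day 10, 5 of the 9 fell. Of 14 other RNA-binding regulators 12 fell to Day 7 and 1 rose, with a median of -0.44; Rbm38 (-1.99), Msi1 (-1.17) and Zfp36l2 (-1.0) led the falls, and Msi2 (1.06) was the one that rose. The 30 dividing-cell genes and the 15 replication genes all fell, with medians of -1.25 and -1.05, Bub1 (-1.735) and Cdc6 (-1.57) among them. From Day 7 to Day 10, 13 of the 30 fell and 3 rose, and 5 of the 15 fell and 2 rose, where 25.9% of all genes were called lower and 26.3% higher. The 5 became 3 with the replicate block and 1 with DESeq2. Of the RNA-binding regulators 2 fell (Msi2, Qk) and 4 rose, with Zfp36l2 (0.74) in front.

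Of 7 inhibitors of cyclin-dependent kinases 5 rose to Day 7, against 35.7% of all genes, and 1 fell, against 34.6%, with a median of 0.81. Cdkn2a, which encodes p16 and ARF, rose by 2.30 ± 0.18 to Day 7 (edgeR, adjusted p = 4.5e-06) and by 2.16 to Day 10, from a mean of 5.07 CPM at Day 2 to 112 CPM at Day 10. Cdkn2c rose by 1.79, Cdkn1a by 1.0 and Cdkn2b by 0.81 to Day 7, and Cdkn2b by a further 1.46 to Day 10, while Cdkn1c fell by 1.29 from Day 7 to Day 10. Of 9 fetal growth genes 7 rose to Day 7 and 1 fell, beside the same shares of all genes, with a median of 0.63, in contrast to the IGF2BP genes. Dlk1 rose by 2.05, Plagl1 by 1.42, Igf2, whose mRNA gave the IGF2BP proteins their name, by 0.83, and H19 by 0.55. By Day 10 this list had turned: 8 of the 9 fell from Day 7, where 25.9% of all genes were called lower, with a median of -0.93, Igf2 by 0.93 and Dlk1 by 1.73, while Mest (0.11) did not pass the test.

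To see whether the decline ran evenly through the cultures, the cells were clustered within each day, without the members and the lists among the genes that drew the clusters, and clusters with chondrocyte markers in front were set against all other cells. The chondrocyte-like clusters were cluster 5 at Day 2 (led by Acan, Cytl1, Hapln1, Dkk1 and Nog), clusters 1 and 8 at Day 7 (led by Snorc, S100b, Scrg1, Matn1 and Mia, and by Slc39a1, Col27a1, Fgfr3, Ihh and Acan) and clusters 1, 2 and 10 at Day 10. Of the 16 chondrocyte markers 14 to 16 were enriched in these clusters, but only 4 in cluster 8 of Day 7. They held 9.20% and 4.14% of the Day 2 cells, 20.9% and 21.3% of the Day 7 cells, and 25.5% and 26.3% of the Day 10 cells. By UMIs they held 7.6% and 8.11% of the Day 2 totals. The unnamed cluster 0 of Day 2 held 3.88% of the cells of replicate A and 51.4% of those of replicate B, where its median was 2131.5 UMIs. Dividing cells with chondrocyte markers (cluster 2 at Day 2 and cluster 9 at Day 7) were led by cell cycle genes, were given no name, and were counted among the other cells.

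The decline of Hmga2 was steeper in chondrocyte-like cells than in all other cells pooled. There it was at 533 and 571 CPM at Day 2, 39.6 and 38.2 CPM at Day 7, and 32 and 39.3 CPM at Day 10. In the other cells it was at 582 and 603 CPM at Day 2, 133 and 132 CPM at Day 7, and 177 and 179 CPM at Day 10. TMM factors were set within each kind of cell, so levels of the 2 kinds are set side by side only roughly. At Day 2 they lay close together, and per own total the chondrocyte-like cluster 5 was at 651 and 702 CPM, and at Day 7 and Day 10 every library was lower in chondrocyte-like cells. The fall to Day 7 was 14.2-fold in chondrocyte-like cells (log2 fold change -3.83 ± 0.09) and 4.48-fold in the others (-2.16 ± 0.06). The difference of the changes, fitted on all 12 sums with the library as a block, was -1.62 ± 0.07 (edgeR, adjusted p = 5.3e-09), and for Day 10 against Day 2 it was -2.15 ± 0.07 (adjusted p = 8.1e-10). From Day 7 to Day 10 Hmga2 rose by 0.43 ± 0.06 in the other cells (adjusted p = 0.00035) and gave -0.13 ± 0.08 in chondrocyte-like cells (adjusted p = 0.232), with a difference of -0.53 ± 0.07 (adjusted p = 7.1e-05).

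**Figure D3:**
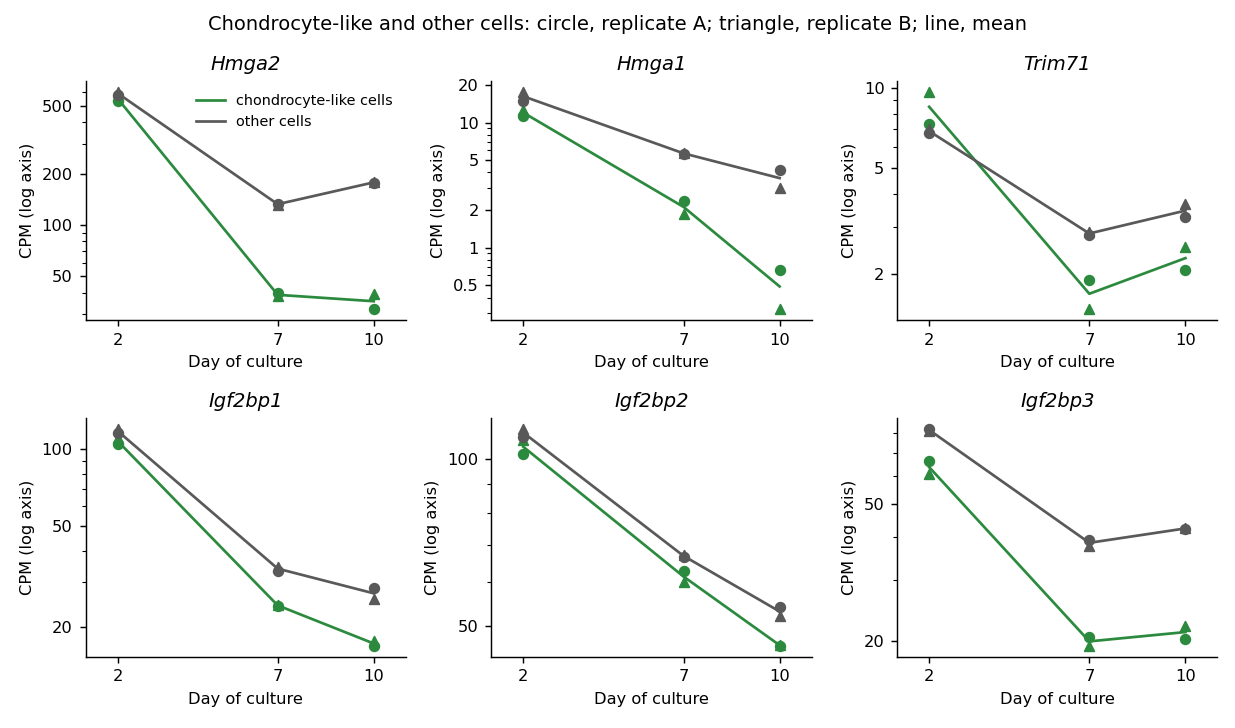
Each panel plots the CPM of one gene (log y axis) in chondrocyte-like cells (green) and in all other cells (grey) against the day of culture, with circles for replicate A, triangles for replicate B and lines through the means. The lines of Hmga2 start close together at Day 2 and part by Day 7, at means of 38.9 and 132 CPM, while those of Igf2bp2 run side by side.

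In both kinds of cell all 7 tested genes fell from Day 2 to Day 7, against 33.3% of all genes called lower in chondrocyte-like cells (34.0% higher) and 32.7% in the others (34.4% higher), and all 7 were below Day 2 at Day 10, against 34.3% (36.9% higher) and 37.4% (38.5% higher). The decline was therefore not confined to either. It was steeper in chondrocyte-like cells for 5 genes at Day 7, against 20.3% of genes with a lower difference, and for the same 5 at Day 10 against Day 2, against 21.1%. Beside Hmga2 these were Trim71 (difference -1.001 ± 0.17 to Day 7, adjusted p = 0.00038), Hmga1 (-0.94 ± 0.14, adjusted p = 0.00012), Igf2bp3 (-0.55 ± 0.06, adjusted p = 1.2e-05) and Igf2bp1 (-0.30 ± 0.06, adjusted p = 0.0011). Hmga1 had parted further by Day 10 (-2.36 ± 0.20 against Day 2, adjusted p = 1.4e-06), from 12.02 ± 0.919 to 0.490 ± 0.237 CPM in chondrocyte-like cells and from 16.2 ± 1.95 to 3.60 ± 0.858 CPM in the others (mean ± SD, n = 2). For Igf2bp2 the difference was 0.01 ± 0.05 to Day 7 (edgeR, adjusted p = 0.934), and for Lin28b it was -0.53 ± 0.63 (adjusted p = 0.534), on 3 UMIs in each chondrocyte-like sum of Day 7. With classes from marker UMIs, however, edgeR called Igf2bp2 lower in the difference for Day 10 against Day 2. The difference of Trim71 lost its call at 0.5 times the clustering resolution, at -0.37 to Day 7 (adjusted p = 0.0643) and -0.17 for Day 10 against Day 2 (adjusted p = 0.351), and by marker UMIs at -0.12 for Day 10 against Day 2 (adjusted p = 0.632).

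In the step to Day 10, Hmga1, Igf2bp1 and Igf2bp2 fell in chondrocyte-like cells, against 20.7% of genes called lower, and edgeR called 0 of the 7 higher, against 21.2%, with 1 higher at an unadjusted p under 0.05. That was Trim71 (0.43 ± 0.18, adjusted p = 0.0662), while Hmga2 (-0.13) and Igf2bp3 (0.09) lay nearer to 0. Trim71 passed the test with cells assigned by marker UMIs (0.46, adjusted p = 0.033) and without Day 7 replicate A (0.63, adjusted p = 0.042) or Day 10 replicate A (0.58, adjusted p = 0.036), but was at -0.32 (adjusted p = 0.141) with 2 times the clustering resolution. Hmga2 fell in chondrocyte-like cells at 2 times the resolution (-0.30, adjusted p = 0.011) and without Day 10 replicate B (-0.28, adjusted p = 0.018). In the other cells the same 3 fell, against 26.9%, and Hmga2, Igf2bp3 (0.14 ± 0.05, adjusted p = 0.0434) and Trim71 (0.29 ± 0.09, adjusted p = 0.0264) rose, against 28.8%. Igf2bp3 lost this call at 2 and at 0.5 times the clustering resolution and without any one of the Day 7 and Day 10 libraries, and Trim71 lost it without Day 7 replicate A, Day 7 replicate B or Day 10 replicate B. For Hmga1 (-1.42 ± 0.22, adjusted p = 0.0002) and Hmga2 the later change differed between the kinds of cell, against 22.1% of genes with a lower difference. At 2 times the resolution Igf2bp1 (-0.33, adjusted p = 0.00071), Igf2bp2 and Trim71 (-0.73, adjusted p = 0.0059) had a lower difference too, and Igf2bp1 also without Day 10 replicate B (-0.26, adjusted p = 0.0049). These later differences depended on how cells were assigned: with cells called chondrocyte-like from at least 5 marker UMIs, which put 84.2% to 85.7% of the Day 7 cells of at least 3000 UMIs and 59.7% to 60.0% of those of Day 10 in that class, Hmga2 gave 0.12 (adjusted p = 0.383) in chondrocyte-like and -0.06 (adjusted p = 0.435) in other cells. The difference for Hmga1 was then -0.05 (adjusted p = 0.895).

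Dividing cells were compared next, because their share was lower at the later days. Among cells of at least 3000 UMIs, those with at least 3 UMIs of the 30 dividing-cell genes after thinning to 3000 UMIs made up 47.1% and 65.8% of the Day 2 cells, 19.7% and 17.8% of the Day 7 cells, and 18.2% and 20.1% of the Day 10 cells. Between 267 and 417 cells per library lay at this limit and 642 to 963 lay 1 UMI under it, so the class is a range of a score and not a type. Averaged over days, 4 genes were higher in dividing cells, against 28.2% of all genes called higher and 33.8% called lower. These were Hmga1 (log2 difference 0.76 ± 0.04, edgeR, adjusted p = 1.7e-08), Hmga2 (0.65 ± 0.02, adjusted p = 2.6e-11), Igf2bp3 (0.35 ± 0.02, adjusted p = 1.5e-08) and Igf2bp1 (0.29 ± 0.02, adjusted p = 1.5e-07). Igf2bp2 gave 0.0013 ± 0.016 (adjusted p = 0.958), Trim71 gave 0.003 ± 0.072 (adjusted p = 0.979), and Lin28b gave 0.23 ± 0.23 (adjusted p = 0.407).

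Hmga2 was lower after Day 2 in cells that were not dividing, too. It was at 552 and 558 CPM in them at Day 2, 83.5 and 80.4 CPM at Day 7, and 115 and 117 CPM at Day 10. In dividing cells it was at 618 and 651 CPM, then 145 and 152 CPM, then 214 and 221 CPM. Hmga2 was thus higher in dividing cells of every library, and the gap was wider at the later days. Both classes pooled all kinds of cell, and the part of the kind of cell in this gap was not tested. Per own total, the dividing cells of Day 7 had 185 and 180 CPM in cluster 5 and 33.9 and 33.7 in cluster 9. At Day 10, cluster 7 (led by Ube2c, Hist1h1b and Prc1) had 222 and 174. Cluster 11 of that day (led by Nusap1, Top2a and Cenpf) had 37.0 and 44.3. The difference between dividing and other cells grew from Day 2 to Day 7 for 3 genes, against 16.6% of all genes (10.4% with a smaller one), by 0.87 ± 0.09 for Hmga1 (adjusted p = 5.0e-05), 0.67 ± 0.04 for Hmga2 (adjusted p = 1.4e-06) and 0.34 ± 0.05 for Igf2bp3 (adjusted p = 0.00024). The same 3 passed for Day 10 against Day 2, against 15.9% (9.43% lower), with 1.152 ± 0.10, 0.71 ± 0.04 and 0.24 ± 0.04. For Day 10 against Day 7 edgeR called 0 members in either direction, against 4.16% of genes called lower and 2.10% called higher, with 1 lower and 2 higher at an unadjusted p under 0.05. The adjusted p ran from 0.0611 for Igf2bp2 (0.15) to 0.789 for Lin28b.

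Across clusters Hmga2 spanned a wide range on each day. Levels by cluster are CPM of the cluster's own total, without TMM factors, over clusters of at least 50 cells in each library, and they are described without a test. At Day 2 the median over 13 clusters was 616 CPM, and the highest and lowest differed 26.7-fold. The lowest was a myocyte-like cluster (cluster 13, led by Myog, Actc1, Mymx, Ttn and Tnnt1) with 46.6 and 41.0 CPM, where the means of the other 12 clusters were 264 or higher. The other myocyte-like cluster of the 13 (cluster 12, with Tnnt1, Msc, Kcne1l and Pdgfa among its leading genes) had 290 and 238. Myocyte-like clusters outside the size limit were cluster 10, at 506 in replicate B, and cluster 15, at 78.8 in replicate A. The interdigital mesenchyme-like cluster 8 (led by Msx1, Rprm, Zfhx3, Meox2 and Tmem132c) had 322 and 382. The highest was cluster 6 (led by Ankrd1, Krt18, Hspb1, S100a6 and Hbegf), unnamed, with 1163 and 1182, although its cells had a median of 50998 UMIs in replicate A and 4965 in replicate B.

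At Day 7 the levels of Hmga2 again differed widely between clusters, 16.1-fold between the highest and the lowest mean. The highest was the unnamed cluster 11 (with Itga4, Map1b, Dpysl3 and Slc5a7 among its leading genes), whose replicates lay far apart at 214 and 471 CPM on 22 and 125 UMIs. The lowest mean was not in a chondrocyte-like cluster but in the unnamed cluster 4 (led by Gas1, Fabp4, Angptl1, Osr1 and Col26a1), with 26.7 and 15.9 CPM. Cluster 1, the larger chondrocyte-like one, had 27.3 and 24.6, and the tenocyte-like cluster 6 (led by Igf1, Gpha2, Crabp1, Aspn and Pcp4) had 34.1 and 29.7. The contractile-like cluster 3 (led by Spp1, Tagln, Acta2, Cnn1 and Hspb1) had 189 and 191, and the perichondrium and fibrous-like cluster 7 had 165 and 216. Cluster 3 held 44.7% and 44.6% of all Hmga2 UMIs with 21.7% and 21.2% of all UMIs, whereas cluster 1 held 10.3% and 8.89% of Hmga2 UMIs with 34.4% and 32.8% of all UMIs. Unnamed dividing cells (cluster 5, led by Hist1h1b, Hist1h2ap, Hist1h2ae, Prc1 and Ube2c) held a further 21.9% and 22.4%, so clusters 3 and 5 together carried most Hmga2 of that day. Dividing cells with chondrocyte markers (cluster 9) had only 33.9 and 33.7 CPM, close to cluster 1.

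At Day 10 the range was 59.5-fold. Bone-forming-like cells (cluster 13, led by Ibsp, Ifitm5, Slc13a5, Col13a1 and Sgms2) had 12.9 and 6.59 CPM, and the chondrocyte-like cluster 1 (led by Snorc, Hapln1, Matn1, Mia and Cnmd) 12.6 and 11.8, with 1.82% and 1.31% of Hmga2 UMIs in 18.7% and 15.1% of all UMIs. The other chondrocyte-like clusters were higher, at 40.8 and 50.3 for cluster 2 (led by Lars2, Col27a1, Col11a2, Wwp2 and Fry) and 108 and 98.2 for cluster 10 (led by Snorc, Ucma, Cnmd, Fgfr3 and Col11a2). Contractile-like cells (cluster 5, led by Actg2, Ankrd1, Cnn1, Acta2 and Tagln) had 304 and 249, with 37.5% and 27.8% of Hmga2 UMIs. Cluster 12 (led by Dlk1, Crabp1, Sncg, Wnt10a and Msln), which the markers did not name, had 524 and 636, near the Day 2 median. It held 1.35% of the cells of replicate A and 3.31% of those of replicate B, and 8.43% and 24.2% of their Hmga2 UMIs. Part of the Hmga2 total of Day 10 thus lay in a small cluster whose size differed between the cultures, while the totals of the cultures lay close together, at 138 and 143 CPM.

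**Figure D4:**
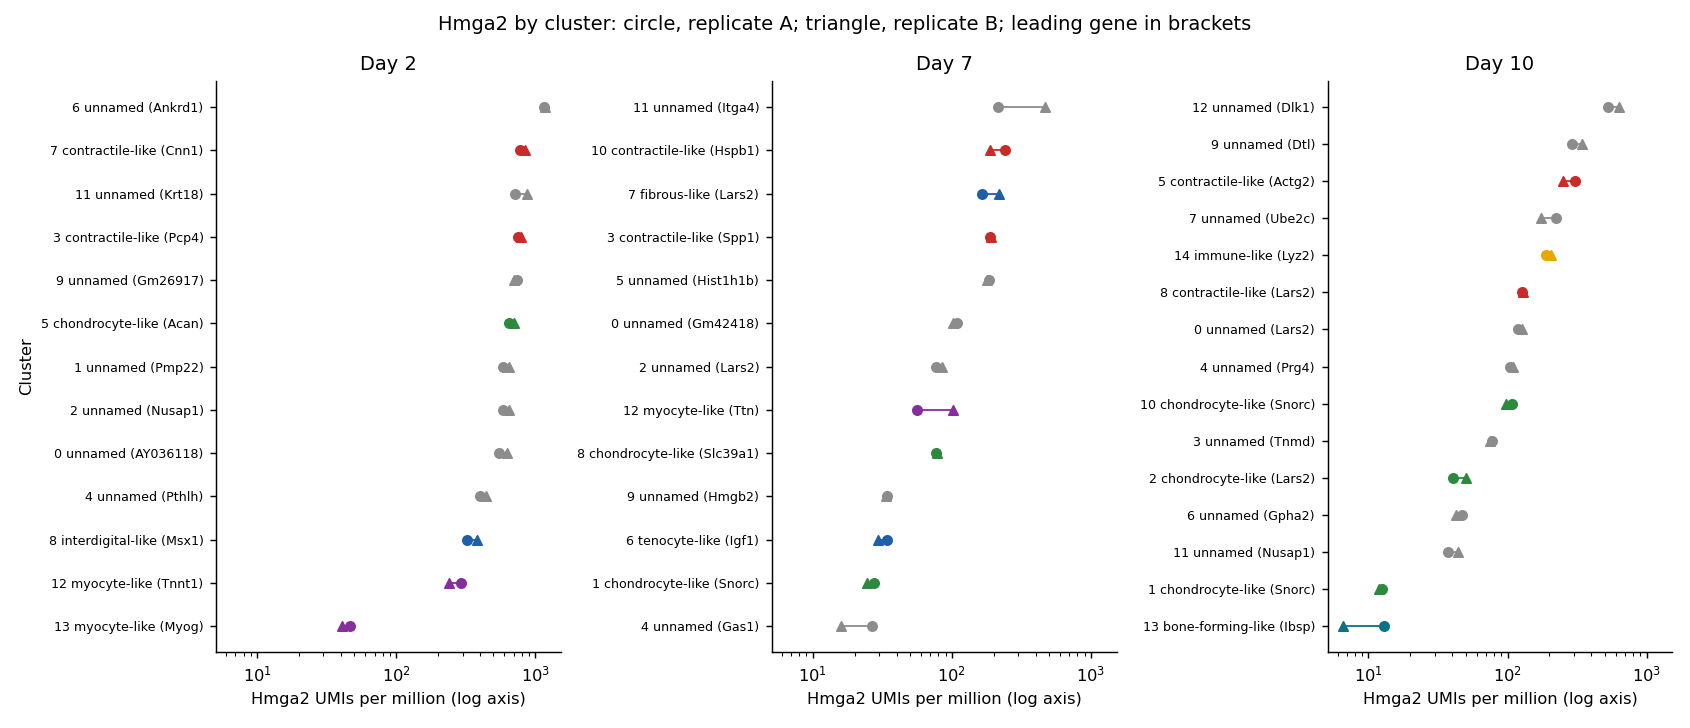
Hmga2 CPM (log x axis) are plotted for each cluster of at least 50 cells in both libraries (y axis, number, name and leading gene), per day, with circles for replicate A and triangles for replicate B and colours by kind of name. At Day 2 the clusters run from 43.8 to 1172, and at Day 10 they run from 9.76 for bone-forming-like cells to 580 for cluster 12.

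The other members were read over the same clusters. By the mean of the replicates Lin28b was highest at Day 2 in the interdigital mesenchyme-like cluster 8, at 10.7 and 11.6 CPM on 112 and 89 UMIs, though cluster 9 was higher in replicate B (6.32 and 14.3 CPM on 8 and 19 UMIs). In cluster 8 Hmga2 was among the lower. This cluster held 19.7% and 18.4% of Lin28b UMIs in 5.09% and 4.32% of all UMIs, and chondrocyte-like cells had 1.34 and 0.900 CPM. Trim71 and Igf2bp1 were highest at Day 2 in cluster 9 (led by Gm26917, Lars2, B830012L14Rik, Rian and Neat1), at 37.1 and 37.0 CPM for Trim71 and 190 and 218 for Igf2bp1. At Day 10 both were highest in cluster 9 of that day (led by Dtl, Lars2, Hjurp, Kif15 and Ncapg2), at 11.3 and 15.5 and at 74.1 and 95.9. Cells of these clusters had few UMIs, with medians of 2638 and 3800 at Day 2 and 6896 and 6245 at Day 10, and nuclear or mitochondria-related RNAs such as Neat1 and Lars2 were among their leading genes. Their part in these levels was not tested.

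The highest and lowest clusters differed 2.22-fold for Igf2bp1, 1.95-fold for Igf2bp2 and 2.01-fold for Igf2bp3 at Day 2. In the same order they differed 8.8-fold, 3.2-fold and 3.3-fold at Day 7, and 6.69-fold, 5.50-fold and 4.45-fold at Day 10. The lowest Igf2bp1 level of Day 7, in cluster 10, rested on 5 UMIs in each library. By the mean of the replicates Igf2bp3 was lowest in chondrocyte-like cluster 1 on both later days, at 16.7 and 15.01 CPM at Day 7 and 14.98 and 15.5 at Day 10. At Day 10 it was highest in immune-like cells (cluster 14, led by Lyz2, Cxcl2, Fcer1g, Tyrobp and Fxyd2), at 63.0 and 72.7, and at Day 2 in the myocyte-like cluster 13, at 116 and 124. Igf2bp2 went the other way, with its lowest levels in the same cells, 9.30 and 19.1 in immune-like cells at Day 10 and 74.3 and 89.9 in the myocyte-like cluster 13 at Day 2. Hmga1 followed Hmga2 in part, highest by mean in cluster 6 at Day 2 (35.9 and 43.4) and in cluster 12 at Day 10 (17.9 and 15.3), while at Day 7 it was highest in the contractile-like cluster 10 (28.9 and 43.4, on 15 and 29 UMIs) with a 47.7-fold range of means, and at 0.452 and 0.256 in chondrocyte-like cluster 1 at Day 10. Leaving immune-, osteoclast-, myocyte- and erythroid-like cells out of the library sums, an alternative chosen after seeing the data, gave -2.62 for Hmga2 from Day 2 to Day 7 and the same counts of members called in every step.

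Per cell, fewer cells had an Hmga2 UMI after Day 2 and those that did had fewer. With every cell of at least 3000 UMIs thinned to 3000, 71.7% (95% exact binomial interval 70.7 to 72.6) and 77.8% (76.9 to 78.6) of cells had an Hmga2 UMI at Day 2, 17.6% (16.8 to 18.4) and 16.6% (15.9 to 17.4) at Day 7, and 21.2% (20.4 to 22.1) and 22.3% (21.4 to 23.2) at Day 10. Cells as deposited gave 91.5% and 81.4%, 37.9% and 37.6%, and 54.1% and 52.6%. Thinning left out 646 to 6833 cells per library, the most in Day 2 replicate B. Cells with 3 or more Hmga2 UMIs made up 25.1% and 31.5% on Day 2, 1.32% and 1.31% on Day 7, and 2.55% and 2.85% on Day 10. Intervals cover counting error only.

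**Figure D5:**
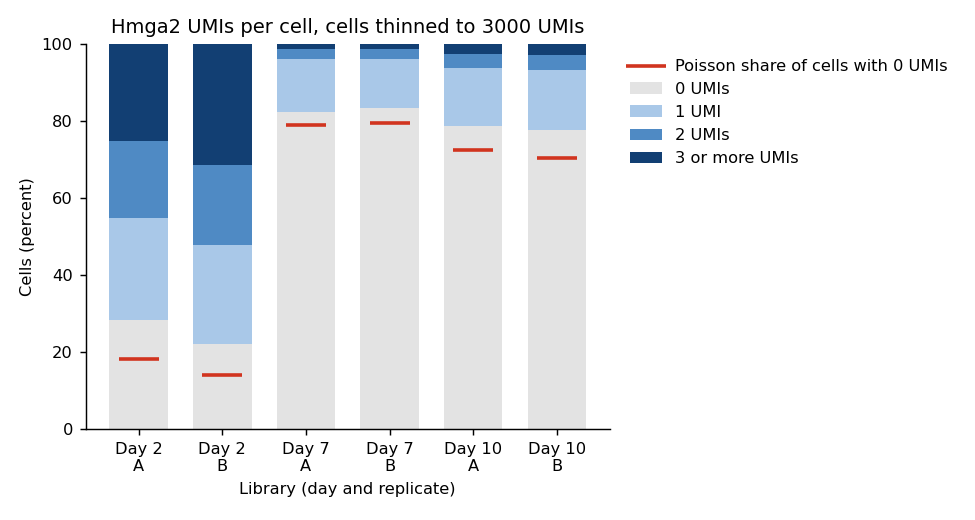
Each bar gives the percent of cells (y axis, from 0 to 100) with 0, 1, 2 or 3 and more Hmga2 UMIs in one library (x axis, day and replicate), in cells thinned to 3000 UMIs, and the red line marks the percent with 0 UMIs that an even spread over cells (Poisson) would give at the same mean. In all 6 bars the cells with 0 UMIs reach above the red line.

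Hmga2 was spread less evenly over cells than its mean would give. Its variance was 1.56 to 2.13 times its mean in the 6 libraries, where a Poisson spread gives 1, and 17.6% and 16.6% of Day 7 cells had a UMI where an even spread would give 21.0% and 20.4%. At Day 10 the shares were 21.2% and 22.3% against 27.6% and 29.5%. At Day 2 the same held, with 71.7% and 77.8% against 81.8% and 85.9%, so unevenness was not a feature of the later days alone. The other 6 tested genes lay near a Poisson spread, with ratios of 0.987 to 1.12, at low means. In chondrocyte-like cells, 78.3% and 78.2% had an Hmga2 UMI on Day 2, 8.61% and 8.11% on Day 7, and 9.08% and 9.85% on Day 10, against 71.0% and 77.7%, 21.5% and 19.9%, and 25.7% and 26.8% in the others.

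Immune- and osteoclast-like cells, which are not of the limb mesenchyme, were set beside these shares at the same 3000 UMIs per cell. Of them, 30% and 68.8% had an Hmga2 UMI at Day 2 (of 20 and 77 cells), 27.6% and 31.1% at Day 7 (29 and 45 cells), and 35.7% and 26.3% at Day 10 (126 and 167 cells). Immune-like cells had Hmga2 at 362 CPM of their own total in Day 2 replicate B, on 219 UMIs and below the TMM-scaled 592 CPM of the whole library. In Day 7 replicate B they had 167 CPM, and at Day 10 159 and 154 CPM, above the TMM-scaled whole libraries. Levels with and without TMM factors are set side by side only roughly. On these later days immune-like cells thus gave no measure of free RNA in the droplets. The part of free RNA in the shares of cells with a UMI was not tested.

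For the other genes the share of thinned cells with a UMI was also lower after Day 2, described here without a test. Igf2bp1 went from 30.4% and 31.1% on Day 2 to 9.22% and 9.10% on Day 7 and then 7.67% and 7.74% on Day 10. For Igf2bp2 it was 30.9% and 30.2%, then 17.3% and 18.1%, then 13.7% and 15.1%, and for Igf2bp3 22.6% and 22.4%, then 8.38% and 8.42%, then 9.57% and 10.6%. Hmga1 went from 4.60% and 5.54% to 0.858% and 0.784% and then 0.732% and 0.406%. Trim71 went from 2.33% and 2.51% to 0.686% and 0.689% and then 1.08% and 1.49%, and Lin28b from 0.648% and 0.704% to 0.054% and 0.064% and then 0.042% and 0.011%. For each of these genes the order of the 3 days by mean share was that of the library sums.

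Within a library, cells with an Hmga2 UMI more often had a UMI of Hmga1 or an IGF2BP gene than cells without one, described by library. At Day 7, 12.2% and 12.6% of thinned cells with Hmga2 also had Igf2bp1, against 8.59% and 8.40% of cells without, and for Igf2bp3 10.6% and 11.3% against 7.91% and 7.85%. At Day 10 Igf2bp3 was found in 12.1% and 11.9% against 8.88% and 10.2%, and Hmga1 in 1.77% and 1.37% against 0.451% and 0.131%. For Igf2bp2 the shares were 17.8% and 20.4% against 17.2% and 17.6% at Day 7, 15.5% and 17.9% against 13.2% and 14.3% at Day 10, and 31.3% and 30.8% against 29.8% and 28.02% at Day 2. At Day 2 the Igf2bp1 shares were 31.1% and 32% against 28.6% and 27.7%. Lin28b was no more common in cells with Hmga2 at Day 2, 0.618% and 0.653% against 0.723% and 0.886%, and at the later days at most 3 cells per library had both. These are descriptions over the cells of single libraries, without a test.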

How the data were processed

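Digits in a dish cultures were profiled with 10x Genomics 3′ single-cell RNA-seq, with 2 libraries per time point (Day 2, Day 7, Day 10). The deposited files hold raw UMI counts per gene and cell barcode, made by the authors with Cell Ranger 6.1.2 (STAR, GRCm38/mm10) and analysed by them in Seurat 4.1.0. The limits on UMIs, genes, mitochondrial and ribosomal share given by the study were applied here and left 72099 of 91215 barcodes. The study set these limits per library, with a higher mitochondrial limit at each later day. Doublets were not removed, and an alternative left out the 5% of cells with the most UMIs. The members and lists were chosen with earlier results of these data known.

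Counts were summed per library, and per library and kind of cell, and fitted in R 4.3.3 with edgeR 4.0.16 (filterByExpr, TMM, quasi-likelihood test, Benjamini-Hochberg over all genes tested, adjusted p under 0.05), which was tested on simulated data. Cells were clustered per day with scanpy 1.11.5 and leidenalg 0.10.2 (3000 variable genes without members and lists, 35 components, 20 neighbours). Named were all members, up to 4 called genes of each list and comparison with the largest change, genes of lists of 10 or fewer, the 5 genes most like Hmga2 and the 3 most like each other member, and the leading genes of clusters. Nr6a1, Xpo5, Ago4, Qk and the let-7 host transcripts outside the lists were chosen after their values were seen. A few genes that the rule names are not reported here. Alternatives covered other scaling, no low-count filter, all barcodes, depth, DESeq2 1.42.0, the replicate block, each library left out, other resolutions, classes from marker UMIs and other limits for dividing cells.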

Additional observations from a re-analysis of the deposited data

Results flagged for a closer look

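The change over time differed between chondrocyte-like and other cells for several genes, by the test of the difference itself (edgeR's quasi-likelihood test on 12 sums, adjusted p under 0.05). From Day 2 to Day 7 the log2 differences, chondrocyte-like minus other, were -0.94 for Hmga1, -1.62 for Hmga2, -0.30 for Igf2bp1, -0.55 for Igf2bp3 and -1.001 for Trim71. Of all genes, 20.3% had a lower and 23.5% a higher difference in that step. From Day 7 to Day 10 the differences were -1.42 for Hmga1 and -0.53 for Hmga2, against 22.1% of all genes lower and 21.3% higher. Neither was called with classes from marker UMIs. From Day 2 to Day 10 the differences were -2.36 for Hmga1, -2.15 for Hmga2, -0.45 for Igf2bp1, -0.57 for Igf2bp3 and -0.82 for Trim71. There, 21.1% of all genes had a lower and 24.0% a higher difference.

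The gap between dividing and other cells, each pooled over all kinds of cell, also changed over time by the test of the difference itself. From Day 2 to Day 7 it grew by 0.87 for Hmga1, 0.67 for Hmga2 and 0.34 for Igf2bp3, and from Day 2 to Day 10 by 1.152, 0.71 and 0.24. Of all genes, 16.6% were called higher and 10.4% lower in the first comparison, and 15.9% and 9.43% in the second. With 2 libraries a day, single libraries could not be tested for standing apart.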

How the results depend on the processing

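The fall of all 7 tested members from Day 2 to Day 7 and to Day 10 held under all 16 alternatives, and Hmga2 ranged from -2.85 to -2.41 for Day 7 against Day 2. With library totals alone as scaling, the median of all genes shifted to -0.27 at Day 7 and -0.26 at Day 10 against Day 2. Of 1049 member values under alternatives, 20 lost a call, 9 gained one and 32 turned sign. The causes were not tested. Left out of this total are dividing-cell differences between days that the main fit did not call. Thinning cells to 3000 UMIs left 2917 genes lower and 2901 higher at Day 10 against Day 7.

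Leaving out 1 library gave these ranges for Day 10 against Day 7: 1 to 3 members higher over all cells, 0 to 1 higher in chondrocyte-like cells, 1 to 3 higher in other cells, Lin28b -0.40 to 0.17 (other cells -0.59 to 0.10, difference -1.39 to 0.44), Hmga2 in chondrocyte-like cells -0.28 to 0.014, and the differences of Igf2bp3 -0.091 to 0.019 and Trim71 -0.021 to 0.37. For Day 7 against Day 2 the Igf2bp2 difference was -0.0031 to 0.055, and 0 to 1 members were lower in the dividing-cell difference. The average over days of dividing minus other cells was -0.018 to 0.020 for Igf2bp2 and -0.10 to 0.10 for Trim71.

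With classes from marker UMIs, Day 10 against Day 7 gave 1 member higher in chondrocyte-like cells (Trim71, while Hmga2 was at 0.12), 0 higher in other cells by edgeR, also at an unadjusted p under 0.05 (Hmga2 -0.060, Igf2bp3 -0.093, Trim71 -0.14), and 0 members lower (2 at an unadjusted p) and 1 higher, Igf2bp3 (0.17), in the difference, with Hmga2 at 0.18, and the Igf2bp2 difference to Day 7 was -0.067. At 2 times the resolution 5 members (Hmga1, Hmga2, Igf2bp1, Igf2bp2 and Trim71) were lower in the difference for Day 10 against Day 7, Trim71 at -0.73, and Lin28b was at 0.061, with -0.087 for Igf2bp3 and -0.32 for Trim71 in chondrocyte-like cells. At 0.5 times the resolution the Igf2bp2 difference to Day 7 was -0.025. Without the 5% of cells with the most UMIs Lin28b was at 0.0025 for Day 10 against Day 7. With at least 5 UMIs to call a dividing cell, Lin28b was at -0.36, Igf2bp2 at -0.016 and Trim71 at -0.12, and 1 member, Igf2bp2, was lower in the difference to Day 7.

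The study does not state whether the letters A and B pair the cultures. Deviations of same-letter libraries correlated at -0.016, -0.057 and -0.0077 over genes, which cannot settle how the cultures were set up. With the replicate block, 6461 genes were lower and 6674 higher at Day 7 than at Day 2, against 6570 and 6772 without it, Hmga2 was at -2.57, and the counts of members called did not change. Few UMIs limited Lin28a and Lin28b at the later days.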
